A study of Mus musculus with 24 samples.

Results

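Gene expression in the epithelium of the duodenum was compared with that of the jejunum in wild-type mice, with 3 arrays for each segment. These 6 arrays were chosen by their tissue and genotype labels from a series of 24 arrays, which holds 8 groups of 3: liver, duodenum, jejunum and ileum from wild-type mice and from mice without caspase-1 (Casp1-null). The wild-type animals were male C57BL/6 mice of 14 to 16 weeks on chow, and the Casp1-null males, used here for a second comparison of the same segments, had been backcrossed to that strain. All intestines came from mice that had been fasted overnight and had been given 200 µL of olive oil into the stomach 2 h earlier, so every group described here had received oil and no fasted intestine was measured. The small intestine was divided into its 3 segments and the epithelial layer was scraped off, which collects all cell types of that layer and can take up neighbouring cells. The labels do not say where the cuts between segments lay, how mice relate to replicate numbers, or whether the segments of a replicate came from the same animal. The p-values below therefore measure the spread between samples, pooled over the 18 intestinal arrays of both genotypes.

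The small intestine is a tube of similar-looking villi whose enterocytes do different work along its length. The duodenum receives acid from the stomach together with bile and pancreatic juice, starts the activation of pancreatic enzymes, and is the main site where iron, much of the calcium and folate are taken up. The jejunum follows and digests and absorbs most sugars, peptides and lipids, while bile acids and cobalamin are left to the distal small intestine. These roles are set up by transcription factors that mark position along the gut, and they persist in the renewing epithelium.

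The promoters of 4 genes with large segment differences are shown here, because the values that follow turn on these genes. Tmprss15 (enteropeptidase) and Pdx1 (a transcription factor of duodenum and pancreas) were higher in duodenum, and Slc34a2 (a phosphate transporter) and Slc10a2 (the ileal bile acid transporter) were higher in jejunum. Each sequence runs 5′ to 3′ from 250 bases before to 50 bases after the RefSeq start of the gene in the mouse build GRCm38.p6, on the strand of the gene. The windows are chr16:79091048-79091347 on the minus strand for Tmprss15, chr5:147269847-147270146 on the plus strand for Pdx1, chr5:53049103-53049402 on the plus strand for Slc34a2 and chr8:5105238-5105537 on the minus strand for Slc10a2. Capitals mark matches, on either strand, to the letters AGATAA or TGATAA (the core bound by GATA factors), ACGTG or GCGTG (the core of hypoxia response elements) and CAAAGTCCA (an HNF4 site).
Tmprss15: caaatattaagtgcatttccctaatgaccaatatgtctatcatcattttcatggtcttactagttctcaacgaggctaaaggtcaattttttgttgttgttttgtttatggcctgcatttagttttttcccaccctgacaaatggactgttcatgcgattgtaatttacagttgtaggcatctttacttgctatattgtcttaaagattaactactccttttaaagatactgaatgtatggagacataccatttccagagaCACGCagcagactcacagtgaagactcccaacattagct
Pdx1: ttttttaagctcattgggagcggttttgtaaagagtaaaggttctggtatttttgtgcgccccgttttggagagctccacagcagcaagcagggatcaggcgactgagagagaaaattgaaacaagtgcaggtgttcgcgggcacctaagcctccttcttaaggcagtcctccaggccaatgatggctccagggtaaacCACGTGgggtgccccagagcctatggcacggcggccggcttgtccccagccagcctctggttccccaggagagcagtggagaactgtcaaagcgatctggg
Slc34a2: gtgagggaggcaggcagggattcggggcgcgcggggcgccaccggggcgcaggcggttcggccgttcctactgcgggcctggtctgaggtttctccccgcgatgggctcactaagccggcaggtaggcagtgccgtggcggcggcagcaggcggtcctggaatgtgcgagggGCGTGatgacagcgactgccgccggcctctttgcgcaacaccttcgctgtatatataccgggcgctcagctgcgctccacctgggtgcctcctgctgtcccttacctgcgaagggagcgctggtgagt
Slc10a2: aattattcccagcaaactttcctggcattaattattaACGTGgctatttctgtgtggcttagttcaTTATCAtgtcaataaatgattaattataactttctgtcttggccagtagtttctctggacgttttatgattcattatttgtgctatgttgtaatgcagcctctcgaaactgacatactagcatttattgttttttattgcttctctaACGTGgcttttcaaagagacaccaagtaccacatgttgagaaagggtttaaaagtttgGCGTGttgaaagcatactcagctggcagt
The capitals in Pdx1 are a palindrome that holds ACGTG on both strands. The GATA letters occurred in 18.6% of all 32851 promoters of this length, the hypoxia response letters in 43.8% and the HNF4 letters in 0.475%. Among the 20 genes with the largest difference toward duodenum, 16 had a listed promoter (17 promoters), of which 23.5% held the GATA letters and 52.9% the hypoxia response letters. Among the 20 genes with the largest difference toward jejunum, 16 had a listed promoter (18 promoters), of which 33.3% held the GATA letters and 44.4% the hypoxia response letters. No promoter of either group held the HNF4 letters. A match describes the letters of the window and is not a measured binding site.

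Levels are log2 values from robust multi-array averaging (RMA), as the authors deposited them, and every value below is a log2 level or a log2 difference, duodenum minus jejunum, unless called a fold. Where 3 levels are given they belong to replicates 1, 2 and 3 in that order. Errors of differences are standard errors (SE) of the limma fit to all 18 intestinal arrays, so spread in ileum enters them too. Errors of levels are standard deviations (SD) of 3 arrays. The array medians lay between 4.87 and 4.96, and a segment whose mean was below 4.87 was treated as not shown above background, so that its fold is given as "at least". Levels correlated at 0.987 to 0.992 between arrays of the same segment and at 0.975 to 0.985 between segments. Array number limits the precision, with 3 arrays a segment. Array signals can be compressed near the top of the scale, which was not tested here.

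Duodenal array 1 stood apart from the other 5 arrays in genes of the pancreas. Of 26 measured genes of the exocrine pancreas, 22 were highest on this array and 17 exceeded every other array by over 1 log2 unit. The mean level of that list was 8.61 on this array, 5.32 and 5.20 on the other duodenal arrays and 5.31, 5.26 and 5.17 on the jejunal arrays. Cpa1, which encodes a pancreatic carboxypeptidase, was at 12.04, 4.76 and 4.34 in duodenum and 4.48, 4.68 and 4.32 in jejunum. Zg16, Spink1, Pnliprp2, Clps and Rnase1 of that list were well above the array medians on all 6 arrays. No gene of the list was called higher in duodenum. Spink1 was called higher in jejunum with all arrays (adjusted p = 0.0454), but without any 1 of the 6 arrays it was not (adjusted p from 0.0512 to 0.159). Duodenal array 1 also had the highest level of several duodenal genes below. Jejunal array 1 had the highest mean over 18 B and plasma cell genes, 6.70 against 6.07 and 4.99 on the other jejunal arrays and 5.51, 5.59 and 5.33 in duodenum. Their part in the segment differences was not tested beyond leaving arrays out.

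**Figure D1:**
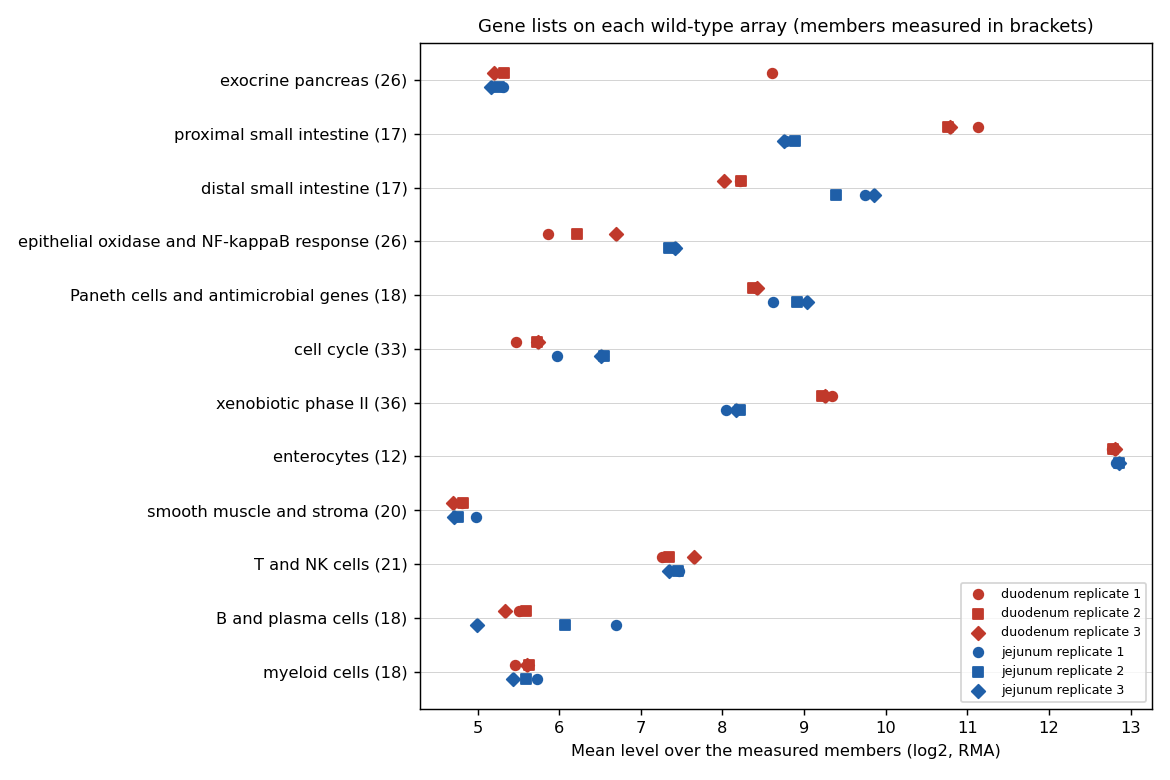
Mean log2 RMA level (horizontal axis) of each gene list (rows, members measured in brackets) on each of the 6 wild-type arrays; red marks duodenum, blue marks jejunum and the shape gives the replicate. Duodenal array 1 lies apart for the exocrine pancreas genes, at 8.61, while the enterocyte list lies between 12.77 and 12.86 on all 6 arrays.

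The labelled tissue was set beside marker genes. Their lists were chosen with earlier results of these data known, and several proximal and distal members return in the lists below. The counts are therefore a description and not an independent check. The mean over 12 enterocyte genes lay between 12.77 and 12.86 on every array, and the mean over 20 smooth muscle and stroma genes lay between 4.70 and 4.99, close to the array medians. Of 17 genes listed as proximal, 8 were called higher in duodenum and 1, the sterol transporter Npc1l1, higher in jejunum, a call that was lost without any 1 array. Of 17 genes listed as distal, 7 were called higher in jejunum and 0 higher in duodenum. Among all 18820 genes tested, 4.38% were called higher in duodenum and 3.37% higher in jejunum, at a Benjamini-Hochberg adjusted p under 0.05 in limma. Because these are bulk samples, fewer cells of a type and less RNA per cell cannot be told apart in any result here.

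In all, 1460 genes (7.76%) were called, 825 higher in duodenum and 635 higher in jejunum. At least a 2-fold difference was seen in 258 of the former and 223 of the latter, and at least an 8-fold difference in 29 and 28. The segments did not overlap for 1454 of the called genes, against 29.6% of all genes tested. The median difference over all genes was 0.03. Without duodenal array 1 the count was 880, of which 574 were higher in duodenum and 306 higher in jejunum, and 852 of these were among the 1460. Without duodenal array 2 it was 905, and without jejunal array 3 it was 893.

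**Figure D2:**
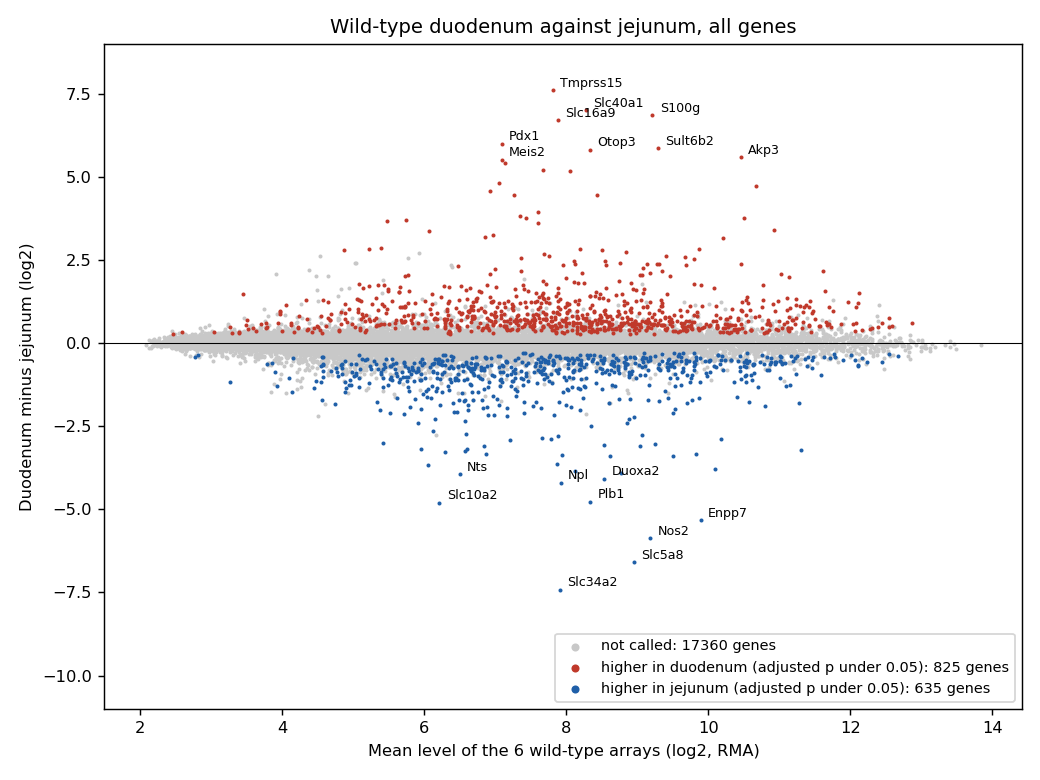
Log2 difference, duodenum minus jejunum (vertical axis), against the mean log2 RMA level of the 6 wild-type arrays (horizontal axis), 1 point a gene, with the largest differences named. The 825 genes called higher in duodenum are red, the 635 called higher in jejunum are blue, and genes not called are grey.

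Of the transcription factors that mark position along the gut, 8 were called. Pdx1, Meis2 and Onecut2 were called higher in duodenum, and Osr2, Tfcp2l1, Ehf, Foxa1 and Cdx2 higher in jejunum, out of 37 measured regional transcription factors, whose median difference was -0.01. The shares were 8.11% and 13.5%, against 4.38% and 3.37% over all genes. Pdx1, which specifies the pancreas and the duodenal region, was at 10.13, 9.86 and 10.26 in duodenum and 4.11, 4.15 and 4.02 in jejunum. All 3 duodenal arrays were high and all jejunal arrays were under the array median, so the difference of 5.99 ± 0.22 (SE, n = 3 and 3) was at least a 35.7-fold one (adjusted p = 8.55e-10). The pancreas also expresses Pdx1, and without duodenal array 1 the difference was 5.96 (adjusted p = 2.96e-08). Meis2, a homeobox partner of other position factors, was at 10.08, 9.47 and 9.999 in duodenum and 4.32, 4.39 and 4.27 in jejunum, at least 30.3-fold higher in duodenum (adjusted p = 0.000157). Onecut2, a proximal intestinal homeobox factor, was at 9.87, 9.90 and 9.96 in duodenum and 6.75, 7.44 and 7.11 in jejunum, a 6.99-fold difference (adjusted p = 1.92e-05). The duodenal levels of Onecut2 were nearly equal and did not overlap the jejunal ones. Foxq1, a forkhead factor outside that list, was at 9.40, 9.80 and 9.25 in duodenum and 4.87, 5.10 and 5.12 in jejunum, a 21.96-fold difference (adjusted p = 5.1e-08), and its second probe set was also called, at 1.60.

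Among the jejunal factors, Osr2, a zinc finger factor, was at 4.70, 4.64 and 4.63 in duodenum and 7.72, 7.95 and 8.13 in jejunum. It was at least 8.05-fold higher in jejunum (difference -3.28 ± 0.15, adjusted p = 7.51e-09) and higher still in ileum, at 9.95 ± 0.13 (SD). Tfcp2l1, a grainyhead-like factor, was at 7.50, 7.96 and 7.77 in duodenum and 10.32, 9.91 and 9.83 in jejunum, a 4.86-fold difference toward jejunum (adjusted p = 4.8e-06). Ehf, an epithelial ETS factor, was at 6.78, 7.14 and 6.9996 in duodenum and 7.66, 8.41 and 8.49 in jejunum (difference -1.21 ± 0.22, adjusted p = 0.00428), with no overlap. Foxa1 and Cdx2, named after their values were seen, differed by -1.15 ± 0.27 and -0.50 ± 0.13 (adjusted p = 0.0186 and 0.0292). The general enterocyte regulators Hnf4a, Hnf4g and Gata6 were not called, with differences of 0.07, 0.27 and 0.28. Gata4, also named after its values were seen, was at 10.51, 10.68 and 10.54 in duodenum and 10.21, 9.81 and 9.67 in jejunum and was not called (adjusted p = 0.169), while its ileal level was 5.71 ± 0.61. The duodenal and jejunal levels of Gata4 did not overlap, and its ileal spread enters the SE behind that p-value. The count of factors higher in jejunum fell from 5 to 3 without duodenal array 3 or jejunal array 3, and the count higher in duodenum was 5 without jejunal array 2.

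Iron genes were the mineral group with the largest share toward duodenum. Of 21 measured genes of iron absorption, 8 (38.1%) were called higher in duodenum and 1 (4.76%) higher in jejunum, with a median difference of 0.46. Over all genes 4.38% and 3.37% were called, so the jejunal share was close to that of all genes. Slc40a1 (ferroportin, the basolateral iron exporter) was at 12.05, 11.47 and 11.81 in duodenum and 4.54, 4.84 and 4.93 in jejunum. Every duodenal array was far above every jejunal array, which lay around the array median, and the difference of 7.01 ± 0.34 was at least 114-fold (adjusted p = 2.4e-08). Cybrd1, the brush border reductase that prepares dietary iron for uptake, was at 10.74, 8.32 and 8.58 in duodenum and 4.64, 4.64 and 4.60 in jejunum. Jejunal levels were nearly equal, and duodenal array 1 was highest, over 2 log2 units above the other duodenal arrays. The difference was 4.59 ± 0.82 with all arrays, at least 19.5-fold (adjusted p = 0.00352), and 3.82 without array 1 (adjusted p = 0.022). Slc11a2, the apical iron transporter DMT1, was at 10.81, 9.66 and 9.99 in duodenum and 8.57, 8.75 and 8.71 in jejunum, a 2.78-fold difference (adjusted p = 0.00159) with array 1 again highest.

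Regulators and stores of iron were part of the same group. Epas1, the hypoxia-inducible factor that drives the iron uptake genes in enterocytes, was at 10.59, 10.44 and 10.39 in duodenum and 8.57, 8.14 and 8.63 in jejunum, with closely grouped levels in each segment and a 4.07-fold difference (adjusted p = 4.96e-07). Ireb2, an iron-sensing RNA-binding protein, and Slc39a14, a zinc and iron importer, were 2.32-fold and 2.34-fold higher in duodenum (adjusted p = 0.000266 and 0.000245). Fth1, the ferritin heavy chain, was at 13.22, 13.14 and 13.18 in duodenum and 12.55, 12.55 and 12.60 in jejunum, a small difference of 0.61 ± 0.08 with no overlap (adjusted p = 0.000307). Hmox1, the heme oxygenase, was 3.26-fold higher in duodenum (adjusted p = 0.04). Hif1a was the member higher in jejunum, by a difference of -0.81 ± 0.21 (adjusted p = 0.0381). The count higher in jejunum was 0 in 5 of the 6 fits without 1 array, and 1 without jejunal array 2. Hmox1 and Hif1a were named after their values were seen. Heph, the ferroxidase that works with ferroportin, and Aco1 were not called, with differences of 0.04 and 0.07. With any 1 array left out, 7 or 8 members were called higher in duodenum.

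The leading calcium genes were higher in duodenum and the leading phosphate gene was higher in jejunum. Of 21 measured genes, 5 (23.8%) were called higher in duodenum and 3 (14.3%) higher in jejunum, with a median difference of 0.05. All genes together gave 4.38% and 3.37%. S100g (calbindin-D9k, which carries calcium through the enterocyte) was at 12.79, 12.39 and 12.74 in duodenum and 5.76, 6.14 and 5.45 in jejunum. The duodenal arrays stood over 6 log2 units above the jejunal ones, a 116-fold difference (adjusted p = 1.1e-07). Trpv6, the apical calcium channel, was at 7.81, 5.86 and 6.22 in duodenum and 3.75, 3.76 and 3.93 in jejunum, with array 1 highest. Its difference was 2.82 ± 0.61 (adjusted p = 0.0122) with all arrays, at least a 3.26-fold one because the jejunal levels were under the array median. Without array 1 it was 2.23 and no longer called (adjusted p = 0.0655). Atp2b1, the basolateral calcium pump, was at 12.35, 11.97 and 12.41 in duodenum and 11.34, 11.12 and 10.98 in jejunum, 2.13-fold higher in duodenum (adjusted p = 0.000553). Vdr, the vitamin D receptor, was at 11.81, 11.95 and 11.97 in duodenum and 11.002, 10.98 and 11.001 in jejunum, a difference of 0.92 ± 0.09 (adjusted p = 1.41e-05) with little spread in either segment. Cldn2, a claudin of cation-permeable junctions, differed by 1.0001 ± 0.25 (adjusted p = 0.0292), and was not called without duodenal array 1 or 3 or jejunal array 1 or 3 (adjusted p = 0.103, 0.0925, 0.112 and 0.072). The count higher in duodenum was 3 without array 1.

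Slc34a2, the intestinal sodium-phosphate cotransporter, showed the reverse pattern at 3.66, 5.10 and 3.84 in duodenum and 11.88, 11.81 and 11.18 in jejunum. It was at least 100.0-fold higher in jejunum (difference -7.42 ± 0.39, adjusted p = 3.71e-08), and its ileal level was 12.24 ± 0.26. Trpm6, an apical magnesium channel, was at 4.59, 4.42 and 4.39 in duodenum and 7.32, 6.16 and 6.19 in jejunum, at least 3.10-fold higher in jejunum (adjusted p = 0.000117) with no overlap. Slc34a3, named after its values were seen, differed by -0.72 ± 0.16 (adjusted p = 0.0134). Slc20a1, another phosphate transporter, was at 10.62, 10.19 and 9.74 in duodenum and 9.51, 9.24 and 9.37 in jejunum and missed the threshold (difference 0.81 ± 0.24, adjusted p = 0.0589).

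**Figure D3:**
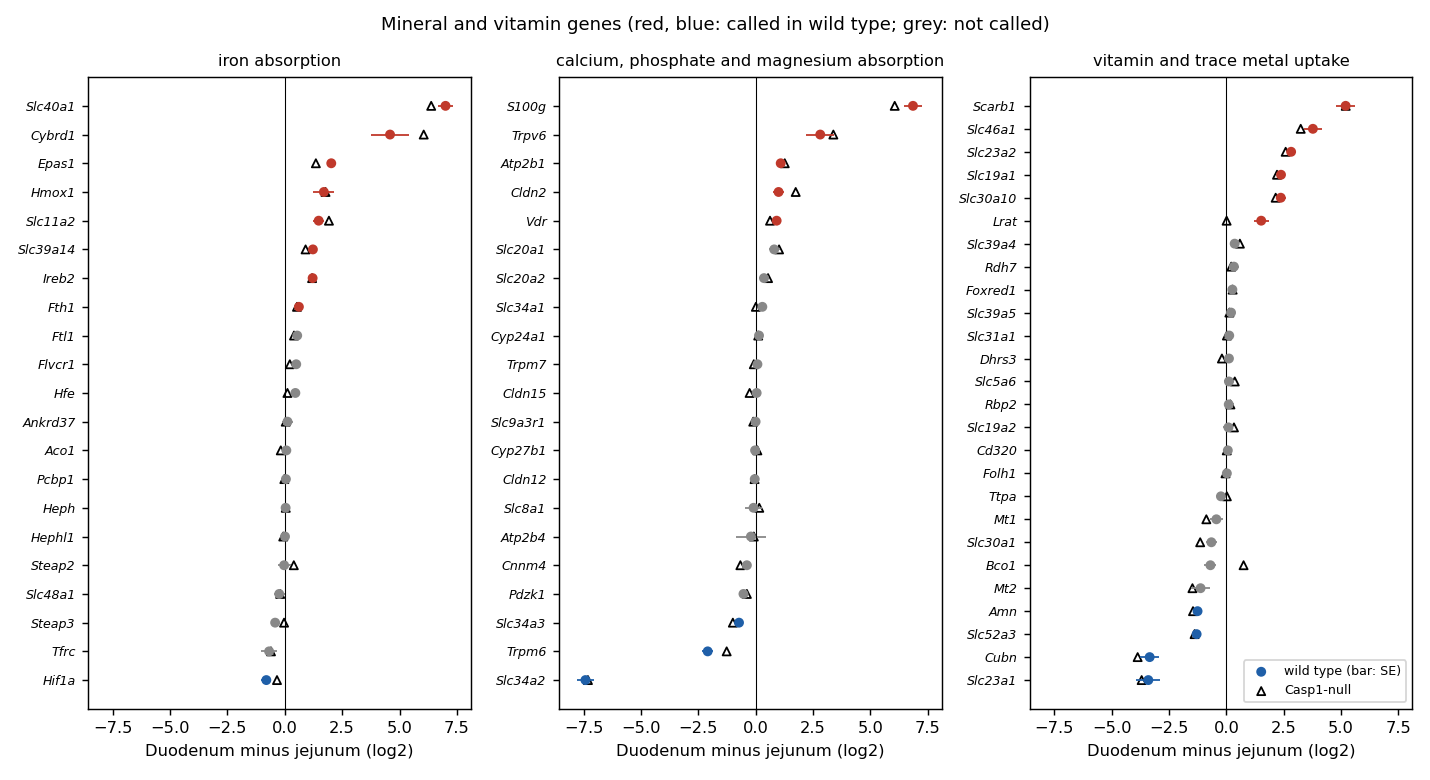
Log2 difference, duodenum minus jejunum (horizontal axis), of every measured gene of iron absorption, of calcium, phosphate and magnesium absorption, and of vitamin and trace metal uptake; filled points with SE bars are wild type (red or blue where called, grey where not) and open triangles are Casp1-null. Slc40a1, S100g and Scarb1 lie farthest to the duodenal side of their lists, and Slc34a2 lies farthest to the jejunal side.

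Vitamin carriers were called in both directions. Of 26 measured genes of vitamin and trace metal uptake, 6 (23.1%) were called higher in duodenum and 4 (15.4%) higher in jejunum. Their median difference was 0.10, and the shares over all genes were 4.38% and 3.37%. Slc46a1, the proton-coupled folate transporter, was at 12.43, 12.39 and 12.32 in duodenum and 8.24, 9.26 and 8.34 in jejunum. Duodenal levels were nearly equal and all above the jejunal ones, a 13.6-fold difference (adjusted p = 4.16e-05). Slc19a1, the reduced folate carrier, was at 10.23, 10.38 and 10.38 in duodenum and 7.77, 8.11 and 7.97 in jejunum, a 5.20-fold difference (adjusted p = 3.24e-07). The 2 sodium-dependent vitamin C transporters pointed in opposite directions. Slc23a2 was at 11.63, 11.03 and 11.18 in duodenum and 8.20, 8.57 and 8.60 in jejunum, 7.06-fold higher in duodenum (adjusted p = 4.33e-07). Slc23a1 was at 6.002, 7.86 and 6.86 in duodenum and 10.49, 10.16 and 10.30 in jejunum, 10.6-fold higher in jejunum (adjusted p = 0.000954), and was at 4.25 ± 0.63 in ileum.

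Scarb1, a scavenger receptor that takes up carotenoids, vitamin E and cholesterol, was at 10.48, 10.09 and 10.24 in duodenum and 4.45, 6.07 and 4.71 in jejunum, a 36.7-fold difference (adjusted p = 2.48e-06). Jejunal arrays 1 and 3 were under the array median and only array 2 was above it, so the exact fold is uncertain. Slc30a10, a manganese exporter, was at 10.71, 10.26 and 10.50 in duodenum and 8.28, 8.18 and 7.91 in jejunum, 5.16-fold higher in duodenum (adjusted p = 9.16e-06). Cubn, the cubilin receptor for cobalamin bound to intrinsic factor, was at 8.98, 8.66 and 6.83 in duodenum and 11.76, 11.42 and 11.32 in jejunum. It was 10.2-fold higher in jejunum (adjusted p = 0.000156), duodenal array 3 was the lowest, and without that array the difference was -2.68 (adjusted p = 4.59e-05). Its ileal level was 12.17 ± 0.22. Amn, the partner of cubilin, and Slc52a3, a riboflavin transporter, differed by -1.26 ± 0.21 and -1.30 ± 0.21 (adjusted p = 0.00183 and 0.00142), and Lrat, which esterifies retinol, by 1.52 ± 0.33 (adjusted p = 0.013). These 3 were named after their values were seen. Rbp2, the abundant retinol-binding protein of enterocytes, was at 12.74, 12.65 and 12.66 in duodenum and 12.54, 12.66 and 12.55 in jejunum and did not pass (difference 0.10 ± 0.21, adjusted p = 0.881).

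At the brush border, Tmprss15 had the largest difference of all genes toward duodenum. Of 30 measured brush border hydrolases and structural genes, 3 (10%) were called higher in duodenum and 7 (23.3%) higher in jejunum. Their median difference was -0.21, and the shares over all genes were 4.38% and 3.37%. Tmprss15 encodes enteropeptidase, which activates trypsinogen in the duodenal lumen, and was at 11.53, 11.53 and 11.76 in duodenum and 3.96, 4.34 and 3.70 in jejunum. All jejunal levels were under the array median and the difference of 7.61 ± 0.40 was at least 103-fold (adjusted p = 3.71e-08). The 2 alkaline phosphatases Akp3 and Alpi, which detoxify bacterial lipopolysaccharide, were both higher in duodenum. Akp3 was at 13.30, 13.18 and 13.26 in duodenum and 7.71, 8.55 and 6.71 in jejunum, a 48.1-fold difference (adjusted p = 1.24e-05), with the jejunal arrays spread over nearly 2 log2 units and the duodenal ones near the top of the scale. Alpi was at 12.96, 12.90 and 12.92 in duodenum and 12.24, 12.16 and 12.09 in jejunum, a 1.70-fold difference (adjusted p = 0.00627).

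The 7 members higher in jejunum were Enpp7, Xpnpep2, Naaladl1, Mep1a, Cndp2, Dpp4 and Myo1a, the last 3 named after their values were seen. Enpp7, the alkaline sphingomyelinase, was at 5.85, 8.41 and 7.42 in duodenum and 12.63, 12.53 and 12.51 in jejunum. Jejunal levels were tight, duodenal ones ranged over more than 2 log2 units, and the difference was -5.33 ± 0.72 (adjusted p = 0.000336), or -4.64 without duodenal array 1 (adjusted p = 0.00233) and -5.92 without array 2 (adjusted p = 0.000386). Its ileal level of 8.48 ± 0.88 was below the jejunal one. Xpnpep2, an aminopeptidase for proline-containing peptides, was at 8.58, 9.15 and 8.51 in duodenum and 11.85, 11.37 and 11.65 in jejunum, 7.34-fold higher in jejunum (adjusted p = 4.79e-06). Naaladl1 and Mep1a, a further peptidase and a meprin subunit, were 3.51-fold and 3.08-fold higher in jejunum (adjusted p = 0.000432 and 0.000305). Anpep and Mgam, which cut peptides and starch products, were near the top of the scale and not called, with differences of -0.25 ± 0.08 and -0.16 ± 0.09 (adjusted p = 0.0876 and 0.367). The count higher in jejunum was 4 without duodenal array 1 or without any jejunal array in turn.

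**Figure D4:**
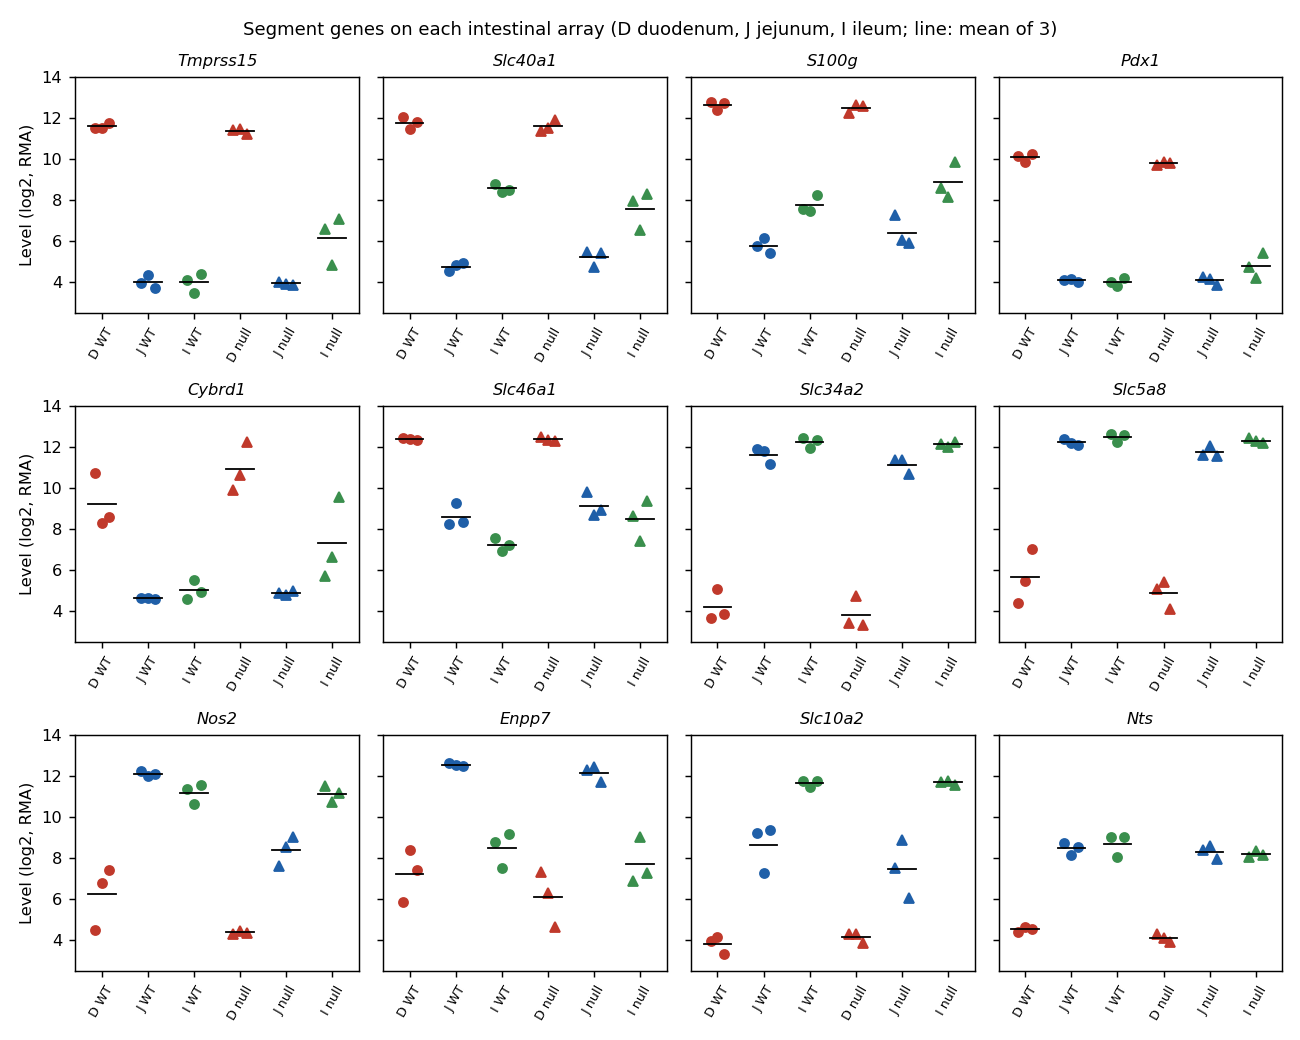
Log2 RMA level (vertical axis) of 12 segment genes on each of the 18 intestinal arrays, by segment (D, J, I) and genotype (circles wild type, triangles Casp1-null), with lines at the mean of 3. Tmprss15, Slc40a1, S100g, Pdx1, Cybrd1 and Slc46a1 are high in duodenum, and Slc34a2, Slc5a8, Nos2, Enpp7, Slc10a2 and Nts are high in jejunum in both genotypes.

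Among transporters of sugars, short acids and amino acids, the main uptake carriers of glucose and peptides were not called in wild type. Of 23 measured sugar genes, 0 were called higher in duodenum and 3 higher in jejunum, and of 23 amino acid and peptide transporters 1 and 3, with median differences of -0.10 and -0.20. The share toward jejunum was 13% in each list, against 3.37% over all genes. The amino acid share toward duodenum was 4.35%, against 4.38% over all genes. Slc5a1, the sodium-glucose cotransporter, was at 12.97, 12.99 and 13.01 in duodenum and 13.11, 13.14 and 13.15 in jejunum (difference -0.14 ± 0.09, adjusted p = 0.471). Slc2a2, the basolateral glucose transporter, was at 11.99, 11.96 and 11.86 in duodenum and 11.80, 11.87 and 11.68 in jejunum (difference 0.15 ± 0.61, adjusted p = 0.945). The wild-type ileal levels of Slc2a2, which enter that SE, were 7.80, 5.33 and 8.99. Its SE and p-value thus do not describe the spread of the 6 compared arrays alone. Slc15a1, the peptide transporter, was at 12.21, 12.27 and 12.25 in duodenum and 12.75, 12.68 and 12.66 in jejunum, without overlap but short of the threshold (adjusted p = 0.0535). In Casp1-null mice Slc15a1 was called higher in jejunum (difference -0.60, adjusted p = 0.0163). Slc5a8, a sodium-coupled carrier of lactate and short-chain fatty acids, was at 4.41, 5.48 and 7.05 in duodenum and 12.40, 12.22 and 12.11 in jejunum. It was 96.8-fold higher in jejunum (difference -6.60 ± 0.47, adjusted p = 5.38e-07), with differences of -5.98 without duodenal array 1 and -7.30 without duodenal array 3 (adjusted p = 1.09e-06 and 5.65e-08). Its relative Slc5a12 was at 7.07, 9.97 and 7.53 in duodenum and 12.04, 11.94 and 11.97 in jejunum, and its difference of -3.79 ± 0.84 (adjusted p = 0.0141) was not called without duodenal array 1 (adjusted p = 0.0764) or array 3 (adjusted p = 0.0544), and was -4.68 without array 2.

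Hk2, a hexokinase, was at 5.83, 6.29 and 6.57 in duodenum and 9.22, 8.71 and 9.34 in jejunum, 7.25-fold higher in jejunum (adjusted p = 0.00014). Slc5a4b, a member of the sodium-glucose carrier family, was at 8.11, 8.23 and 7.20 in duodenum and 10.01, 9.81 and 10.35 in jejunum, a 4.63-fold difference (adjusted p = 0.00596), and was at 5.78 ± 0.49 in ileum. Slc1a1, a glutamate and cysteine carrier, was at 6.08, 6.95 and 7.20 in duodenum and 8.91, 8.84 and 9.01 in jejunum, 4.52-fold higher in jejunum (adjusted p = 2.69e-05), and its second probe set was called as well. Slc6a20a, which carries proline, was at 12.12, 12.01 and 11.76 in duodenum and 10.92, 10.90 and 11.15 in jejunum, 1.96-fold higher in duodenum (adjusted p = 0.00136). Slc1a5 and Slc38a2, both glutamine carriers, differed by -1.18 ± 0.27 and -0.91 ± 0.22 (adjusted p = 0.0159 and 0.0215), but only Slc1a1 was called higher in jejunum without duodenal array 2 or jejunal array 3. Slc1a5 was also not called without duodenal array 1 (adjusted p = 0.0698) or jejunal array 2 (adjusted p = 0.0587), and Slc38a2 not without duodenal array 3 (adjusted p = 0.0576). Slc16a9, a carnitine and urate carrier, was at 11.52, 11.09 and 11.08 in duodenum and 4.52, 4.78 and 4.28 in jejunum, at least 79.1-fold higher in duodenum (adjusted p = 3.71e-08), while its second probe set was at background. Slc37a2, a sugar-phosphate exchanger, was at 10.25, 9.48 and 9.78 in duodenum and 4.80, 4.16 and 4.32 in jejunum, at least 29.99-fold higher in duodenum (adjusted p = 4.16e-07).

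Among genes that take up and package dietary fat, Fabp1, Fabp2, Mttp, Apoa4 and Dgat2 were not called 2 h after the oil, while 5 carboxylesterases were. Of 29 measured genes of fat uptake and re-esterification, 2 were called in each direction, and of 40 genes of chylomicron assembly and lipid droplets, 7 higher in duodenum and 0 higher in jejunum, with median differences of 0.09 and 0.06. The shares were 6.90% in each direction and 17.5% toward duodenum, against 4.38% toward duodenum and 3.37% toward jejunum over all genes. The fat uptake count toward jejunum was 0 without jejunal array 1 or 3 and 1 with any single duodenal array left out. Fabp1 and Fabp2, the fatty acid binding proteins, differed by -0.01 ± 0.21 and -0.16 ± 0.09. Mttp, which loads lipid onto apolipoprotein B, was at 12.88, 12.85 and 12.96 in duodenum and 12.81, 12.85 and 12.81 in jejunum (difference 0.07 ± 0.10, adjusted p = 0.798). Apoa4, an apolipoprotein of chylomicrons, was at 13.44, 13.48 and 13.42 in duodenum and 13.44, 13.49 and 13.51 in jejunum (difference -0.03 ± 0.13, adjusted p = 0.944), with levels near the top of the scale in all 6. Dgat2, a last-step enzyme of triglyceride synthesis, was at 12.76, 12.71 and 12.61 in duodenum and 12.42, 12.43 and 12.38 in jejunum, with duodenum above jejunum on every array but no call (adjusted p = 0.296). The wild-type ileal levels of Dgat2, which enter its SE, were 11.16, 10.48 and 10.97.

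Of the 7 chylomicron and droplet genes higher in duodenum, 5 were carboxylesterases, enzymes that hydrolyse esters and mobilise stored lipid. With any 1 array left out, 6 members of that list were called. Ces1g was at 9.01, 9.37 and 9.86 in duodenum and 5.47, 6.36 and 5.54 in jejunum, a 12.3-fold difference (adjusted p = 7.36e-07). Ces2b, Ces2a, Ces1e and Ces1f were 5.26-fold, 3.14-fold, 2.85-fold and 2.51-fold higher (adjusted p between 4.97e-05 and 0.00142). These relatives are similar in sequence, so a probe set may read more than its own gene. Abhd5, the co-activator of the main droplet lipase, was at 9.48, 9.29 and 9.11 in duodenum and 8.68, 8.53 and 8.67 in jejunum (difference 0.67 ± 0.13, adjusted p = 0.00679). Slc27a2, a fatty acid transport protein and acyl-CoA synthetase, was at 12.12, 11.97 and 11.74 in duodenum and 10.61, 10.74 and 11.07 in jejunum, 2.20-fold higher in duodenum (adjusted p = 0.000336).

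Plb1, a brush border phospholipase, was the fat digestion gene with the largest difference and the least even jejunal levels, at 6.01, 5.98 and 5.87 in duodenum and 12.01, 9.11 and 11.04 in jejunum. It was 27.2-fold higher in jejunum (difference -4.77 ± 1.06, adjusted p = 0.0143), with no overlap. The call was lost without jejunal array 1 (difference -4.12, adjusted p = 0.0624) or array 3 (adjusted p = 0.0564), and the difference was -5.57 without array 2. Of its 6 other probe sets, 5 were called toward jejunum and the last had an adjusted p of 0.0506. The ileal level was 6.95 ± 0.86, so both neighbouring segments were below the jejunum.

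Scarb1, described above, was the sterol gene called higher in duodenum. Of 18 measured genes of sterol absorption and efflux, 1 was called higher in duodenum and 3 higher in jejunum. The shares were 5.56% and 16.7%, against 4.38% and 3.37% over all genes. The jejunal count was 1 without duodenal array 2, jejunal array 1 or jejunal array 3. Npc1l1, the cholesterol uptake protein blocked by ezetimibe, was at 11.57, 11.86 and 11.90 in duodenum and 12.54, 12.48 and 12.33 in jejunum (difference -0.68 ± 0.18, adjusted p = 0.0334), without overlap, but it was called only with all 6 arrays. Without 1 of them its adjusted p ranged from 0.0508 (duodenal array 3) to 0.146 (duodenal array 1). Mylip, which marks lipoprotein receptors for breakdown, was at 5.85, 5.87 and 5.60 in duodenum and 7.59, 7.21 and 7.04 in jejunum, 2.84-fold higher in jejunum (adjusted p = 0.000616). The efflux pair Abcg5 and Abcg8 was not called, with differences of -0.25 ± 0.14 and -0.10 ± 0.20. Insig1, which holds the sterol-sensing complex in the endoplasmic reticulum, was at 11.96, 11.35 and 11.59 in duodenum and 9.77, 9.87 and 10.05 in jejunum, 3.33-fold higher in duodenum (adjusted p = 1.41e-05). Of 20 cholesterol synthesis genes 4 (20%, against 4.38% over all genes) were called higher in duodenum, and without 1 array it was 1 or 2. Hmgcs1, an early enzyme of that pathway, was at 11.04, 9.97 and 10.26 in duodenum and 10.49, 10.09 and 10.89 in jejunum and overlapped between segments. Among 20 lipogenesis genes, Me1, which supplies reducing power, was at 10.70, 9.95 and 9.99 in duodenum and 7.76, 7.72 and 8.39 in jejunum, 4.78-fold higher in duodenum (adjusted p = 0.00163). Elovl6, which elongates saturated fatty acids, was 2.46-fold higher in duodenum (adjusted p = 0.000913).

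Of 18 measured bile acid genes, 2 were called higher in duodenum and 1 higher in jejunum. The shares were 11.1% and 5.56%, against 4.38% and 3.37% over all genes. Slc10a2, the apical bile acid transporter, was at 3.96, 4.13 and 3.33 in duodenum and 9.20, 7.29 and 9.35 in jejunum. All duodenal levels were under the array median, jejunal array 2 was lower than the other jejunal arrays, and the gene was at least 12.9-fold higher in jejunum (difference -4.80 ± 0.58, adjusted p = 0.000113; -5.46 without jejunal array 2, adjusted p = 4.01e-05). Its ileal level was 11.66 ± 0.18. Nr0b2 (SHP, a nuclear receptor induced by bile acids) was at 7.89, 7.36 and 8.03 in duodenum and 4.25, 4.75 and 4.13 in jejunum, at least 7.13-fold higher in duodenum (adjusted p = 4.79e-06). Abcc3, a basolateral exporter of organic anions, was at 10.98, 11.24 and 11.68 in duodenum and 10.21, 10.56 and 9.88 in jejunum, 2.12-fold higher in duodenum (adjusted p = 0.0119), and its call was lost without duodenal array 3 (adjusted p = 0.0541) or jejunal array 3 (adjusted p = 0.0649).

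Phase II genes, most of which encode enzymes that conjugate foreign compounds, had the largest share of calls among the gene lists of the pathway plot. Of 36 measured phase II genes, 21 (58.3%, against 4.38% over all genes) were called higher in duodenum and 0 higher in jejunum, with a median difference of 0.62. Most members conjugate with glutathione, glucuronic acid or sulfate. The list also counts the reductase Nqo1, and Nat1, Nat2, Tpmt, Gclc and Gclm. With any 1 array left out, 16 to 19 were called. The mean of the list was 9.34, 9.22 and 9.25 in duodenum and 8.05, 8.21 and 8.17 in jejunum, and array 1 was close to the other duodenal arrays. Gsta4, a glutathione transferase for lipid peroxidation products, was at 12.02, 11.59 and 11.73 in duodenum and 8.54, 8.88 and 8.43 in jejunum, an 8.99-fold difference (adjusted p = 1.12e-06). Gstm4, of the mu class, was at 10.75, 10.77 and 11.04 in duodenum and 8.39, 8.91 and 8.23 in jejunum, a 5.09-fold difference (adjusted p = 2.03e-06). The glucuronosyltransferases Ugt2b38, Ugt2b5 and Ugt2b35 were 15.5-fold, 13.6-fold and 6.48-fold higher in duodenum, each without overlap (adjusted p = 5.08e-07, 3.06e-06 and 4.02e-06). Nqo1, a quinone reductase of the oxidative stress response, was at 9.92, 9.66 and 9.75 in duodenum and 7.92, 8.28 and 8.32 in jejunum, 3.04-fold higher (adjusted p = 6.03e-05). Sult6b2, a sulfotransferase relative outside the list, was at 12.30, 12.04 and 12.32 in duodenum and 5.27, 7.33 and 6.48 in jejunum, a 57.9-fold difference (adjusted p = 1.63e-05). Sult1b1, Sult1d1 and Sult2b1, other sulfotransferases, were not called, with differences of 0.09, 0.32 and 0.16.

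Of 48 measured phase I genes, 14 (29.2%) were called higher in duodenum and 1 (2.08%), Cyp2u1, higher in jejunum, with a median difference of 0.52. All genes together gave 4.38% and 3.37%. The list holds enzymes of oxidation, reduction and hydrolysis and the receptors Ahr and Nr1i2, and Ahr is among the 14. Its called members Ces2a and Aldh1a1 are also counted in other lists. The duodenal count was 9 without jejunal array 1 or 2, and the jejunal count was 0 without duodenal array 1, duodenal array 3 or jejunal array 3. Ephx1, the microsomal epoxide hydrolase, was at 10.97, 10.57 and 10.43 in duodenum and 6.37, 6.13 and 6.11 in jejunum, a 21.9-fold difference (adjusted p = 4.05e-05) with tight jejunal levels. Cyp2c29, a cytochrome P450, was at 10.83, 9.62 and 7.93 in duodenum and 4.61, 5.09 and 4.25 in jejunum, and its duodenal levels spanned nearly 3 log2 units. It was at least 22.5-fold higher in duodenum (difference 4.81 ± 0.47, adjusted p = 1.63e-05), and the difference was 4.13 without array 1 and 5.58 without array 3 (adjusted p = 1.19e-05 and 1.41e-07). Cyp2c66 was at 12.70, 12.65 and 12.73 in duodenum and 10.53, 10.72 and 10.35 in jejunum, 4.46-fold higher (adjusted p = 0.00045). Adh4, an alcohol and retinol dehydrogenase, was at 10.02, 10.20 and 10.03 in duodenum and 7.60, 8.09 and 8.42 in jejunum, 4.12-fold higher (adjusted p = 0.000508), and was at 4.39 ± 0.51 in ileum. Ahr, the receptor that induces many of these enzymes, was at 8.28, 8.66 and 8.15 in duodenum and 7.20, 6.86 and 7.40 in jejunum, 2.31-fold higher in duodenum (adjusted p = 0.000256). Members of the Cyp2c, Ugt2b, Gstm, Akr1c and defensin families are close relatives, and hybridisation to a relative was not tested.

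Most called enzymes of steroid, retinoid and fatty acid oxidation pathways were higher in duodenum. Of 31 measured retinoid and steroid enzymes, 11 (35.5%) were called higher in duodenum and 1 (3.23%), Hsd17b2, higher in jejunum, with a median difference of 0.17. Against 4.38% and 3.37% over all genes, the jejunal share was close to that of all genes. The jejunal count was 0 without duodenal or jejunal array 1. Akr1c19 was at 11.07, 10.77 and 10.30 in duodenum and 7.49, 8.07 and 8.71 in jejunum, Akr1c13 at 9.63, 9.34 and 9.06 in duodenum and 6.39, 6.84 and 7.41 in jejunum, and they were 6.16-fold and 5.52-fold higher in duodenum (adjusted p = 3.81e-05 and 4.8e-06). Aldh1a1, which makes retinoic acid, was at 12.14, 12.01 and 12.06 in duodenum and 10.57, 10.91 and 10.90 in jejunum, 2.42-fold higher (adjusted p = 0.00293). Of 38 measured genes of fatty acid oxidation and ketogenesis, 12 (31.6%) were called higher in duodenum and 1 (2.63%) higher in jejunum. Their median difference was 0.35, and 9 to 11 were higher in duodenum when 1 array was left out. Acaa2, the last enzyme of the mitochondrial spiral, was at 12.61, 12.61 and 12.51 in duodenum and 11.06, 11.41 and 11.56 in jejunum, 2.35-fold higher (adjusted p = 4.07e-05). Cyp4a31, a fatty acid hydroxylase, was at 8.88, 8.31 and 8.58 in duodenum and 4.31, 5.80 and 5.89 in jejunum, 9.52-fold higher (adjusted p = 0.000785), with jejunal array 1 the lowest. Ppargc1b, a co-activator of mitochondrial genes, was 2.55-fold higher (adjusted p = 0.00328). Vnn1, a pantetheinase, was the member higher in jejunum, at 10.29, 10.53 and 10.73 in duodenum and 11.91, 11.81 and 11.63 in jejunum (difference -1.27 ± 0.18, adjusted p = 0.000582). Hadh, Hadha and Acadm were not called, with differences of 0.01, 0.19 and 0.22. Of 29 respiratory chain genes, 2 (6.9%, against 4.38% over all genes) were called higher in duodenum. The count was 1 without duodenal array 1 or 3 or jejunal array 1 or 2.

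**Figure D5:**
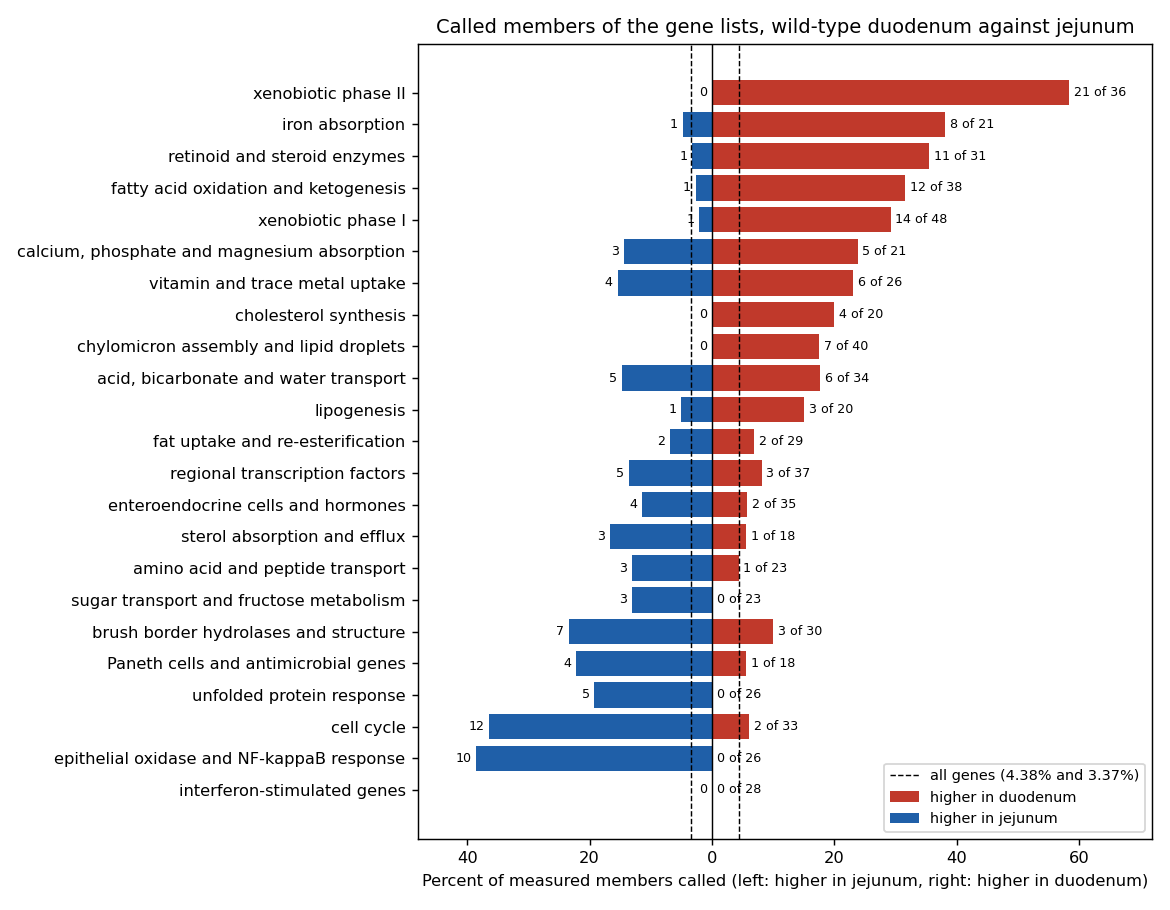
Percent of the measured members (horizontal axis) of each gene list (rows) called higher in duodenum (red bars, to the right) or in jejunum (blue bars, to the left), with the counts at the bar ends; dashed lines are the shares over all genes, 4.38% and 3.37%. Xenobiotic phase II genes reach 21 of 36 toward duodenum, and the epithelial oxidase and NF-kappaB genes 10 of 26 toward jejunum.

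Acid and fluid handling differed by gene. Of 34 measured genes of acid, bicarbonate and water transport, 6 (17.6%) were called higher in duodenum and 5 (14.7%) higher in jejunum. All genes together gave 4.38% and 3.37%. Car2, the cytosolic carbonic anhydrase that supplies bicarbonate, was at 10.85, 10.02 and 10.52 in duodenum and 7.92, 8.37 and 7.95 in jejunum, 5.22-fold higher in duodenum (adjusted p = 0.000332). Slc4a4, the basolateral sodium-bicarbonate cotransporter, was at 11.75, 11.39 and 11.69 in duodenum and 10.96, 10.78 and 10.85 in jejunum, a difference of 0.75 ± 0.12 (adjusted p = 0.00196). Otop3, a proton channel, was at 11.25, 11.25 and 11.21 in duodenum and 5.26, 5.78 and 5.23 in jejunum, a 56.3-fold difference (adjusted p = 3.24e-07) with nearly equal duodenal levels. Slc13a1, the sodium-sulfate cotransporter, was at 12.64, 12.43 and 12.82 in duodenum and 8.84, 8.93 and 9.91 in jejunum, 10.6-fold higher in duodenum (adjusted p = 4.02e-05). Its ileal level was 12.30 ± 0.22, which left the jejunum lowest of the 3 segments.

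The water channels divided. Aqp3 was at 8.58, 8.60 and 8.64 in duodenum and 6.76, 6.96 and 6.75 in jejunum, 3.45-fold higher in duodenum (adjusted p = 2.69e-05), and Aqp1 was at 7.27, 8.78 and 7.15 in duodenum and 11.01, 10.56 and 10.69 in jejunum, 8.11-fold higher in jejunum (adjusted p = 0.000457). Guca2a (guanylin, a secreted regulator of salt and water transport) was at 7.83, 8.09 and 7.49 in duodenum and 11.49, 11.38 and 10.76 in jejunum, 10.6-fold higher in jejunum (adjusted p = 1.39e-06). Its relative Guca2b (uroguanylin) was at 13.01, 12.94 and 12.86 in duodenum and 13.005, 13.13 and 13.01 in jejunum and was not called (adjusted p = 0.665). The count higher in jejunum was 2 without jejunal array 2 or 3 and 3 without duodenal array 1 or 3.

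Hormone genes were called in both directions. Of 35 measured enteroendocrine genes, 2 (5.71%) were called higher in duodenum and 4 (11.4%) higher in jejunum. Over all genes the shares were 4.38% and 3.37%, so the duodenal share was close to that of all genes. Nts (neurotensin, released by fat) was at 4.38, 4.66 and 4.54 in duodenum and 8.73, 8.16 and 8.53 in jejunum, at least 11.7-fold higher in jejunum (adjusted p = 1.31e-07), and its levels were even within each segment. Gcg (the precursor of glucagon-like peptides) was at 6.60, 6.72 and 6.41 in duodenum and 7.71, 7.90 and 8.01 in jejunum, 2.45-fold higher in jejunum (adjusted p = 0.00182). Tph1, which makes serotonin, was at 8.90, 8.06 and 8.29 in duodenum and 7.48, 7.38 and 7.33 in jejunum, 2.02-fold higher in duodenum (adjusted p = 0.00996). Cck (cholecystokinin) was at 8.71, 8.37 and 8.67 in duodenum and 7.30, 7.82 and 7.16 in jejunum, 2.24-fold higher in duodenum (adjusted p = 0.017), a call that was lost without any of 4 arrays in turn. Its adjusted p was then 0.0699 (duodenal array 1), 0.0532 (duodenal array 3), 0.0586 (jejunal array 1) and 0.0798 (jejunal array 3). Gip, the incretin of the proximal intestine, was at 10.04, 10.11 and 9.86 in duodenum and 9.96, 9.92 and 10.07 in jejunum (difference 0.02 ± 0.33, adjusted p = 0.988), and was at 5.69 ± 0.96 in ileum. The count higher in jejunum was 2 without duodenal array 2, jejunal array 1 or jejunal array 3.

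Gastric and Brunner gland genes were mostly near background. Of 17 measured, 3 (Ctse, Cym and Pdx1) were called higher in duodenum, or 17.6% against 4.38% over all genes. In both segments 11 were under the lowest array median. Pdx1 is also counted above among the regional transcription factors. The count called was 2 without duodenal array 1 or 2 or jejunal array 1 or 3. In these fits Cym was not called (adjusted p = 0.119, 0.143, 0.0985 and 0.142). Ctse, an aspartic protease of the stomach surface, was at 11.93, 9.69 and 10.31 in duodenum and 5.54, 5.28 and 5.59 in jejunum, a 36.04-fold difference (adjusted p = 0.000113), or a difference of 4.53 in place of 5.17 without array 1 (adjusted p = 0.000628). Tff2, a trefoil peptide of those glands, was at 6.01, 4.68 and 4.17 in duodenum and 4.48, 4.28 and 4.34 in jejunum, above the array median only on duodenal array 1, and was not called (adjusted p = 0.708). Reg1, a secreted lectin also made by the pancreas, was at 12.997, 12.97 and 13.10 in duodenum and 7.55, 9.40 and 7.95 in jejunum, a 26.4-fold difference (adjusted p = 4.85e-05). The 3 duodenal arrays were nearly equal, and without array 1 the difference was 4.73 (adjusted p = 0.000438). Opn3, an opsin of unsettled intestinal role, was at 9.81, 9.13 and 8.82 in duodenum and 5.08, 5.50 and 5.71 in jejunum, 14.2-fold higher in duodenum (adjusted p = 2.17e-05).

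Oxidase and NF-kappaB genes were called toward jejunum. Of 26 measured genes of the epithelial oxidase and NF-kappaB response, 10 were called higher in jejunum and 0 higher in duodenum, with a median difference of -0.69. That is 38.5% toward jejunum, against 3.37% over all genes. Without duodenal array 1 or jejunal array 3 the count was 6. Nos2, the inducible nitric oxide synthase, was at 4.52, 6.81 and 7.41 in duodenum and 12.26, 11.99 and 12.10 in jejunum. Jejunal levels were nearly equal and duodenal array 1 was the lowest, under the array median. The difference of -5.88 ± 0.54 (adjusted p = 9.68e-06) was -5.01 without that array (adjusted p = 2.24e-06). Duox2 and Duoxa2, which form the epithelial hydrogen peroxide source, spread over more than 2 log2 units among the duodenal arrays. Duox2 was at 4.53, 5.90 and 8.15 in duodenum and 10.55, 10.18 and 9.38 in jejunum (difference -3.85 ± 0.70, adjusted p = 0.00389), and the difference was -3.02 without duodenal array 1 (adjusted p = 0.0179) and -4.83 without array 3 (adjusted p = 0.000161). In a limma fit of the 6 compared arrays alone Duox2 was not called (adjusted p = 0.0576). Duoxa2 was at 5.24, 6.16 and 8.08 in duodenum and 11.12, 10.71 and 9.88 in jejunum (difference -4.08 ± 0.62, adjusted p = 0.000934), with -3.45 and -4.87 without the same arrays (adjusted p = 0.00577 and 0.000111).

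Within that group, Ubd, a ubiquitin-like protein induced by cytokines, was at 3.77, 4.89 and 6.17 in duodenum and 8.46, 8.19 and 7.95 in jejunum (difference -3.26 ± 0.50, adjusted p = 0.000934; -2.67 without duodenal array 1 and -3.87 without array 3, adjusted p = 0.00415 and 0.000145). Tnfaip3 and Nfkbia, which limit NF-kappaB signalling, were 2.60-fold and 1.80-fold higher in jejunum (adjusted p = 0.00566 and 0.00811), each without overlap. Nfkbia was not called in a limma fit of the 6 compared arrays alone (adjusted p = 0.0582). Pigr, the carrier of secreted antibodies, and Il18 were not called, with differences of 0.17 ± 0.08 and 0.57 ± 0.32 (adjusted p = 0.291 and 0.381). The means of the T and NK cell list overlapped between segments, from 7.26 to 7.65 in duodenum and from 7.35 to 7.47 in jejunum. The means of the myeloid list were 5.45, 5.63 and 5.60 in duodenum and 5.72, 5.60 and 5.44 in jejunum. Of 28 interferon-stimulated genes and 10 genes of MHC class II presentation, 0 were called in either direction in limma, and 4 and 1 had an unadjusted p under 0.05. The MHC list's median difference was -0.42.

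Of 18 measured Paneth cell and antimicrobial genes, 4 were called higher in jejunum and 1, Reg1, higher in duodenum, with a median difference of -0.76. The shares were 22.2% and 5.56%, against 3.37% and 4.38% over all genes. Lyz1, the Paneth cell lysozyme, was at 9.96, 9.67 and 9.40 in duodenum and 10.89, 11.25 and 12.23 in jejunum, 3.43-fold higher in jejunum (adjusted p = 0.0176) and 12.80 ± 0.27 in ileum. Defa24, a defensin, was at 9.34, 8.81 and 8.24 in duodenum and 9.95, 10.61 and 11.28 in jejunum, 3.52-fold higher in jejunum (adjusted p = 0.0206). Mmp7, which processes defensins, and Itln1, a lectin, were called with the same direction (adjusted p = 0.0425 and 0.0237). The second probe set of Itln1 was not called (difference -0.33, adjusted p = 0.549). None of these 4 genes was called without jejunal array 3, with adjusted p from 0.0878 (Lyz1) to 0.177 (Mmp7). The count was 2 without duodenal array 1 and 1 without duodenal array 2, duodenal array 3 or jejunal array 2. Reg3b and Reg3g, bactericidal lectins of enterocytes, were lowest on duodenal array 1 and were not called. Reg3g was at 11.26, 12.22 and 12.74 in duodenum and 12.83, 12.89 and 12.87 in jejunum (adjusted p = 0.158).

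The calls of cell cycle genes depended on single arrays. Of 33 measured cell cycle genes, 12 were called higher in jejunum and 2, Rrm2 and Cdt1, higher in duodenum, with a median difference of -0.84. The shares were 36.4% and 6.06%, against 3.37% and 4.38% over all genes. The list means were 5.47, 5.73 and 5.74 in duodenum and 5.97, 6.55 and 6.51 in jejunum. Kif23, a motor of cell division, was at 5.51, 5.98 and 6.30 in duodenum and 6.92, 7.40 and 7.88 in jejunum, 2.77-fold higher in jejunum (adjusted p = 0.00378). Mki67, the proliferation marker, was at 5.80, 6.46 and 6.22 in duodenum and 6.95, 7.98 and 7.65 in jejunum (difference -1.37 ± 0.32, adjusted p = 0.0193). Rrm2, a subunit of ribonucleotide reductase, was at 8.22, 7.28 and 7.15 in duodenum and 6.25, 6.29 and 6.40 in jejunum (difference 1.24 ± 0.26, adjusted p = 0.0113). The count higher in jejunum was 1 without duodenal array 1, jejunal array 2 or jejunal array 3, 4 without duodenal array 2, 6 without duodenal array 3 and 15 without jejunal array 1. That higher in duodenum was 1 without duodenal array 2 or jejunal array 1 or 2. Mki67 had an adjusted p of 0.0933 without duodenal array 1. Of 13 crypt stem and Wnt target genes, 1 was called higher in jejunum (2 without jejunal array 1), or 7.69% against 3.37% over all genes. It was Axin2, a Wnt feedback gene, at 6.53, 6.51 and 6.55 in duodenum and 7.76, 7.88 and 7.21 in jejunum (difference -1.09 ± 0.21, adjusted p = 0.00636).

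Stress, junction and goblet cell genes were called mainly toward jejunum, where the share over all genes was 3.37%. Of 26 measured genes of the unfolded protein response, 5 (19.2%) were called higher in jejunum and 0 higher in duodenum, and the count was 2 without duodenal array 1, duodenal array 2 or jejunal array 1, 3 without jejunal array 2 and 1 without jejunal array 3. Atf4, the factor of the integrated stress response, was at 7.79, 7.84 and 7.99 in duodenum and 8.33, 8.44 and 8.81 in jejunum (difference -0.66 ± 0.14, adjusted p = 0.00961), and it was not called without jejunal array 3 (adjusted p = 0.0503). Chac1, a glutathione-degrading target of that response, was at 5.25, 5.38 and 5.05 in duodenum and 6.97, 7.72 and 9.15 in jejunum, with jejunal array 3 highest. Its difference of -2.72 ± 0.60 (adjusted p = 0.0135) became -2.12 without that array (adjusted p = 0.0697). Of 22 claudin and junction genes, 1 was called higher in duodenum (Cldn2, or 4.55% against 4.38% over all genes) and 4 (18.2%) higher in jejunum. The jejunal count was 0 without duodenal array 2, jejunal array 1 or jejunal array 3 and 1 without duodenal array 1. Of 34 genes of the urea cycle, polyamines and amino acid breakdown, 3 were called higher in duodenum and 1 higher in jejunum. The shares were 8.82% and 2.94%, against 4.38% and 3.37% over all genes. Oat, which makes and uses ornithine, was at 10.08, 10.30 and 9.75 in duodenum and 11.22, 11.43 and 11.45 in jejunum, 2.49-fold higher in jejunum (adjusted p = 0.000123), and Got2, the mitochondrial aspartate aminotransferase, was at 11.26, 11.10 and 11.15 in duodenum and 9.70, 9.94 and 9.996 in jejunum, 2.45-fold higher in duodenum (adjusted p = 6.78e-05). Of 11 goblet cell genes, 2 (18.2%) were called higher in jejunum, Muc2 and Agr2, with differences of -0.40 ± 0.10 and -0.42 ± 0.10 (adjusted p = 0.0321 and 0.0252), and neither was called without duodenal array 1 (adjusted p = 0.144 and 0.111), jejunal array 1 (0.126 and 0.0991) or jejunal array 2 (0.0668 and 0.0729). None of the 18 B and plasma cell genes was called by limma with all arrays (6 at an unadjusted p under 0.05), and 5 were higher in jejunum without jejunal array 3.

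Further genes with a large difference toward jejunum belonged to no list. Npl, which breaks down sialic acid, was at 5.27, 6.35 and 5.85 in duodenum and 10.43, 9.86 and 9.77 in jejunum, 18.3-fold higher in jejunum (adjusted p = 3.72e-06). Prss30, a membrane serine protease, was at 5.46, 7.12 and 7.90 in duodenum and 10.93, 10.72 and 10.50 in jejunum (difference -3.89 ± 0.48, adjusted p = 0.000139; -3.21 without duodenal array 1, adjusted p = 0.000186). P2ry4, a receptor for extracellular nucleotides, was at 4.04, 4.40 and 4.23 in duodenum and 8.32, 7.32 and 8.03 in jejunum, at least 7.80-fold higher in jejunum (adjusted p = 2.2e-07) and at 9.43 ± 0.27 in ileum. Tmigd1, an adhesion protein, and Dusp14 and Map3k6, which act on kinase cascades, were 10.3-fold, 12.5-fold and 10.1-fold higher in jejunum (adjusted p = 7.36e-05, 0.000129 and 3.37e-05), and none of the 3 overlapped between segments.

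The wild-type ileum gave the levels on the far side of the jejunum, as a description. The genes named here are examples and not a complete list. Among genes higher in jejunum, Slc34a2, Slc10a2, Osr2, Cubn, P2ry4, Duox2 and Duoxa2 had an ileal mean above every jejunal array. Enpp7, Plb1, Slc5a12, Slc5a4b, Slc23a1, Npl, Dusp14, Nos2 and Ubd had an ileal mean below every jejunal array. The ileal mean of Npl was 6.24 ± 0.63 and that of Dusp14 was 7.53 ± 0.16. Among genes higher in duodenum, the ileal mean of Slc40a1 was 8.58 ± 0.21 and that of S100g 7.77 ± 0.42, both above every jejunal array. Tmprss15 and Pdx1 were at 3.998 ± 0.47 and 4.02 ± 0.19 in ileum, under the array median.

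The same segments were compared in the Casp1-null mice, whose arrays are separate from those of the wild type. There 1100 genes (5.84%) were called, 634 (3.37%) higher in duodenum and 466 (2.48%) higher in jejunum, and 730 were called in the same direction in both genotypes, which is 50% of the wild-type calls and 66.4% of the Casp1-null calls. By limma, 0 were called in opposite directions. Of the 1460 wild-type calls, 1409 (96.5%) had the same sign in Casp1-null mice. The same-sign share over all genes was not computed. Both comparisons use the spread estimate of the same fit, so their calls are not independent. The differences in Casp1-null mice were 7.43 for Tmprss15, 6.38 for Slc40a1, 6.06 for S100g, 5.70 for Pdx1 and -7.31 for Slc34a2, all called. For Tmprss15, Pdx1, Slc34a2 and Nos2 the lower Casp1-null segment was under the array median, so these measured differences carry no exact size. Cybrd1 had a difference of 6.05 (adjusted p = 0.000417), with Casp1-null duodenal levels of 9.90 to 12.25. Of the 21 phase II genes called in wild type, 17 were called in the same direction, and the list's median difference was 0.66. Of the 10 oxidase and NF-kappaB genes, 1 was, and that list's median difference was -0.15. That gene was Nos2, with a difference of -4.01 (adjusted p = 0.000417), and Casp1-null jejunal levels of 7.62 to 9.01. None of the cell cycle calls was made in Casp1-null mice, where the list's median difference was -0.23.

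A test of the difference itself, wild-type minus Casp1-null segment difference, called 10 of 18820 genes (0.0531%), while 898 had an unadjusted p under 0.05. The oxidase and NF-kappaB genes Nos2, Duox2, Duoxa2 and Ubd were not among the 10, with adjusted p of 0.982, 1, 0.957 and 0.607. Cyp2c29 was the leading duodenal gene that was, with a difference of 4.81 in wild type and 0.42 in Casp1-null mice (adjusted p of the change = 0.0262). Its means in wild-type jejunum and in both Casp1-null segments were under the array median, so the size of the change is not known. Tfcp2l1 was the transcription factor that was, with -2.28 and -0.35 (adjusted p = 0.0209).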

How the data were processed

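RNA from scraped intestinal epithelium (100 ng, RNA integrity number above 8.0) was hybridised to whole-transcript arrays. The authors deposited 1 log2 value per probe set and array, made by RMA per the submitters' processing notes; its version and the genome build are not given in the sources used here. RMA includes quantile normalization, which removes differences in overall signal between arrays. The 35556 probe sets of the 18 intestinal arrays were fitted with limma 3.58.1 (R 4.3.3, lmFit and eBayes) as 6 groups of 3, with 12 residual degrees of freedom. P-values were adjusted by Benjamini-Hochberg over all probe sets for each of 3 contrasts, and genes were called at an adjusted p under 0.05. Of the probe sets, 21218 had 1 symbol, 1881 had several and 12457 had none. Symbols were updated through the RefSeq table of GRCm38.p6 (21185 matched, 33 did not), and each of 18820 genes was represented by its probe set with the highest mean.

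Named genes were the 20 non-overlapping called genes with the largest difference in each direction, up to 6 called and 3 uncalled members of each of 48 lists, and the 5 smallest interaction p-values. Cpa1, Cyp2u1, Hsd17b2 and the genes marked so in the text were named after their values were seen, outside this rule. A segment mean under the lowest array median gave a lower bound, computed against, per array, the higher of the array median and the measured value. Members and lists were chosen with earlier results of these data known. No 2 arrays were identical. With 3 arrays a segment, an exact permutation test cannot go below p = 0.1, so single genes rest on the limma fit. The script was tested on simulated data. Alternatives covered the variance model, a filter, normalization, array weights, replicate blocks, the arrays fitted, a minimum fold, probe set choice and each array left out. Liver arrays were not used.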

Additional observations from a re-analysis of the deposited data

Results flagged for a closer look

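For 10 genes the difference between duodenum and jejunum itself differed between genotypes in limma's interaction test. Each value is the wild-type minus the Casp1-null log2 difference. For Cbr3, Pzp, Tnip3, Fras1 and Cyp2c29 the lower wild-type segment and both Casp1-null segments had means under the lowest array median, and for Tdpoz2 both wild-type segments and the Casp1-null jejunum did, so their values are measured differences with no known size. Cbr3, a carbonyl reductase, had 2.7156 (adjusted p = 0.00263), with a duodenum minus jejunum difference of 2.87 in wild type and 0.16 in Casp1-null mice. Pzp, a protease inhibitor, had 1.4461, from 1.71 and 0.26. Tnip3, a brake on NF-kappaB, had -1.7235, from -1.83 and -0.11. Pglyrp1, a peptidoglycan recognition protein, had -1.7119, from -2.11 and -0.40. Ciapin1, an iron-sulfur assembly protein, had 0.9586, from 1.22 and 0.26.

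Fosb, an immediate early gene, had 2.9976, and its segment difference lay in the Casp1-null mice at -3.18, against -0.19 in wild type. Tdpoz2 had -1.6325, likewise from 1.65 in Casp1-null mice and 0.02 in wild type. Fras1, an extracellular matrix protein, had 1.6932, from 1.65 and -0.04. Tfcp2l1 had -1.9265 and Cyp2c29 had 4.3927, from the segment differences given above.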

How the results depend on the processing

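Of 305 named genes, 170 were called. Of these, 119 were called without each array in turn, 82 under every alternative, and 0 changed direction. The count of 1460 called genes ranged from 880 to 1167 with 1 array left out, that of genes higher in duodenum from 543 to 632, and that higher in jejunum from 306 to 535. A minimum fold of 1.5 (treat) gave 200 called genes, 129 higher in duodenum and 71 higher in jejunum, 182 in Casp1-null mice, and 0 in the interaction, where 898 genes had an unadjusted p under 0.05 in limma without the minimum. Genes higher in jejunum numbered 988 with array weights and 395 with the 9 wild-type arrays. The interaction gave 4 genes with the filter on low values and 5 to 9 with 1 array left out. The cause was not tested. Apart from the minimum fold and the left-out arrays, the settings called 975 (the 9 wild-type arrays) to 2130 genes (array weights) in place of 1460, with 1071 from the 6 arrays alone. The Casp1-null and interaction results have no value in fits of wild-type arrays alone.

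Whether same-numbered arrays share a mouse is not known. The correlations of deviations between same-numbered duodenal and jejunal arrays were -0.0068, -0.0978 and -0.0933 in wild type. In Casp1-null mice they were 0.0486, 0.0292 and 0.1301. Such deviations from means of 3 arrays cannot decide the question, and no pairing was used in the main fit. A fit with the replicate block called 1444 genes, 1273 of them among the 1460. The comparison rests on 3 arrays a segment, has no arm without oil, and leaves the segment borders unknown. Signals near the array median carry no size of change.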
